A study of Mus musculus with 9 samples.

Results

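The genes described here are the Toll-like receptors expressed in elicited mouse peritoneal macrophages, Tlr1, Tlr2, Tlr3, Tlr4, Tlr6, Tlr7, Tlr8, Tlr9 and Tlr13, together with Cd14. They were chosen from a receptor family, with its best known coreceptor, when earlier results of these data were known. Tlr5, Tlr11 and Tlr12 were left out, although Tlr11 passed the filter on low counts. The genes described make up 10 of the 55401 gene IDs in the count table and 10 of the 13501 genes that passed that filter. The macrophages came from the peritoneal cavity and are described as Thio-elicited, read here as recruited by the irritant thioglycollate, and were collected for poly(A) RNA after short adherent culture in medium with 10% serum. There were 3 genotypes with n = 3 libraries each: wild type (WT), Stat6S807A/S807A (SA) and Stat6S807E/S807E (SE), the mutants carrying their change on both Stat6 alleles. S807A replaces a serine of STAT6, the transcription factor of interleukin-4 and interleukin-13 signalling, by alanine, which cannot be phosphorylated, and S807E replaces it by the negatively charged glutamate. No stimulus of a Toll-like receptor was part of any group, and no source used here gives the age or sex of the mice.

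Toll-like receptors are membrane proteins of innate immunity that bind conserved microbial molecules through leucine-rich repeats and signal through a cytoplasmic TIR domain. TLR2, with TLR1 or TLR6 as its partner, and TLR4 with the secreted protein MD-2 sense bacterial lipids at the cell surface, and CD14, a lipid-anchored surface protein, hands lipopolysaccharide to TLR4 and lipopeptides to TLR2. TLR3, TLR7, TLR9, TLR13 and, as known from humans, TLR8 sense nucleic acids inside endosomes, where the chaperone UNC93B1 delivers them. Most signal through the adaptor MyD88 to NF-kB, and TLR3 signals through TRIF, as TLR4 also does from endosomes.

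Cd14 and Tlr2 were higher in SA than in WT and lower in SE than in WT. Tlr1 was higher in SA, and Tlr13 was lower in SE. Levels are in CPM, the counts of a gene scaled to library size. Called means an edgeR adjusted p under 0.05 over all tested genes. Of the 10 genes 3 were called higher and 0 lower in SA than in WT, where 4.07% of all tested genes were called (1.97% higher, 2.10% lower; 266 and 283 genes, or 304 and 229 when scaled by library totals alone). In SE against WT 0 were called higher and 4 lower, where 5.04% of all tested genes were called (2.35% higher, 2.69% lower). In SE against SA 0 were called higher and 5 lower, where 10.2% of all tested genes were called (4.77% higher, 5.42% lower; 644 and 732 genes, or 473 and 925 when scaled by library totals alone). Libraries of the compared genotypes did not overlap for 4, 5 and 8 of the 10 genes, against 19.3%, 20.5% and 28.3% of all tested genes. The median log2 change of the 10 genes was 0.18, -0.21 and -0.26 in these comparisons, against 0.001, -0.003 and -0.003 over all tested genes. The comparisons share libraries, so they are not independent of each other. In bulk RNA, fewer cells that express a gene and less RNA per cell cannot be told apart.

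**Figure D1:**
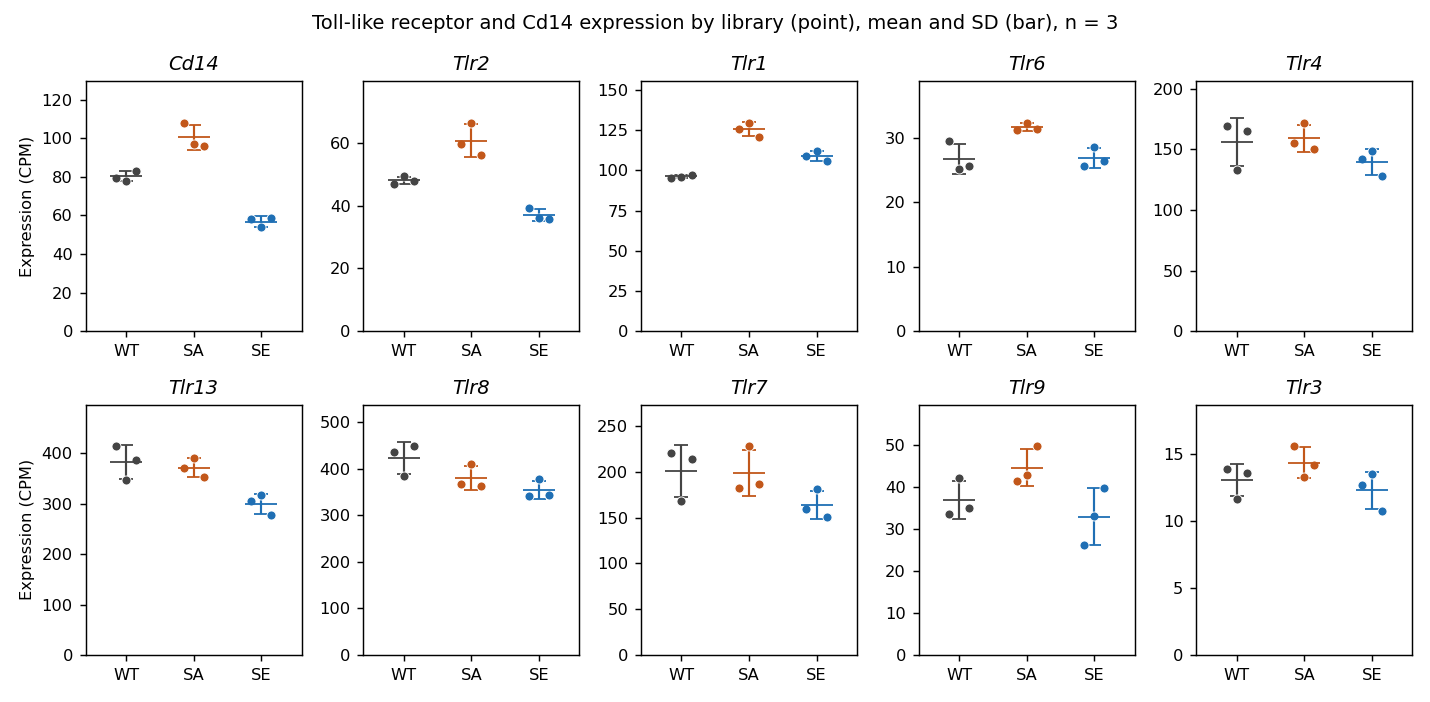
Expression in CPM (linear axis from 0) of the 10 genes in each of the 9 libraries; points are libraries, the horizontal line is the mean and the bar the SD of n = 3. Cd14 and Tlr2 show 3 separate levels, SA above WT above SE, and Tlr1 is lowest in WT.

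Stat6 itself stood at 198, 201 and 187 CPM in WT, 195, 199.5 and 199.8 in the SA libraries and 291, 284 and 312 in SE, 1.51-fold higher in SE than in WT (adjusted p = 6.27e-06 by edgeR); counts per gene do not show the substituted codon. The libraries held between 17286617 and 24618608 counts, and the 10 genes had at least 200 counts in every library. All 8 macrophage markers (Adgre1, Csf1r, Itgam, Cd68, Fcgr1, Lyz2, Mertk and Ptprc) were abundant, with a summed level of 18735 to 23773 CPM in WT, 18919 to 19657 in SA and 18665 to 21329 in SE. Within that list 2 markers were called lower in SE than in WT (Fcgr1 and Mertk) and 2 lower in SE than in SA (Fcgr1 and Ptprc). Markers of large resident peritoneal macrophages (4 of 4 with a count), mast cells (2 of 3, Mcpt4 at 0) and T and NK cells (2 of 5, with Cd3e, Trbc2 and Nkg7 at 0) summed to at most 0.605 CPM in any library. Neutrophil markers (5 of 7, Ly6g and Retnlg at 0) summed to 0.931 to 1.76 CPM in WT, 0.815 to 0.976 in SA and 1.62 to 1.86 in SE, and dendritic cell markers (6 of 6) to 1.95 to 2.11, 1.27 to 2.56 and 1.47 to 1.83 CPM. B cell markers (4 with a count) summed to 0.999 to 1.72 CPM in WT, 1.17 to 1.44 in SA and 0.465 to 0.784 in SE, and eosinophil markers (3 of 3) to 17.7 to 19.8, 13.7 to 14.9 and 16.2 to 20.9 CPM. Nearly all of the eosinophil sum was Siglecf, with Epx at 0 to 2 counts per library and Prg2 at 0 to 1. Monocyte markers (3 with a count) summed to 16.2 to 23.4 CPM in WT, 19.2 to 21.8 in SA and 11.5 to 15.7 in SE, nearly all of it Ccr2. Mesothelial and fibroblast markers (7 of 9, Msln and Wt1 at 0) summed to 3.2 to 4.61 CPM in WT, 41.3 to 46.8 in SA and 7.39 to 11.5 in SE. All 4 tested genes of that last list (Col1a1, Col1a2, Col3a1 and Sparc) were called higher in SA than in WT and lower in SE than in SA. Of these 2 were called higher in SE than in WT. The 4 tested genes made up nearly all of that sum. Dcn had at most 10 counts in any library, and Upk3b and Lum at most 1. Ccr2 was called 1.52-fold lower in SE than in WT (adjusted p = 0.00951 by edgeR, at most 0.062 where the call ended without WT1, WT3 or SE1). It was also called 1.5-fold lower in SE than in SA (adjusted p = 0.00692 by edgeR). Of the B cell markers 1 was called lower in SE than in SA by edgeR and 0 by DESeq2. The part of these differences in the results below was not tested.

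Levels were compared between genes per kilobase of annotated exon, since longer transcripts collect more reads. In WT the order was Tlr8 (118 CPM per kb), Tlr13 (88.9), Tlr7 (49.2), Cd14 (46.3), Tlr1 (28.8), Tlr4 (28.1), Tlr2 (15.9), Tlr9 (10.6), Tlr6 (7.17) and Tlr3 (2.51). The ranges of the 3 WT libraries overlapped between the neighbours Tlr7 and Cd14 and between Tlr1 and Tlr4, and were separate between all other neighbours. In SA Cd14 (57.9) stood above Tlr7 (48.8), with overlapping ranges. In SE Cd14 (32.8) stood below Tlr7 (40.2), with separate ranges, and overlapped Tlr1 (32.6). The place of Tlr4 depended on the length used: by its longest transcript it stood at 38.2 CPM per kb in WT, above Tlr1 at 31.8.

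**Figure D2:**
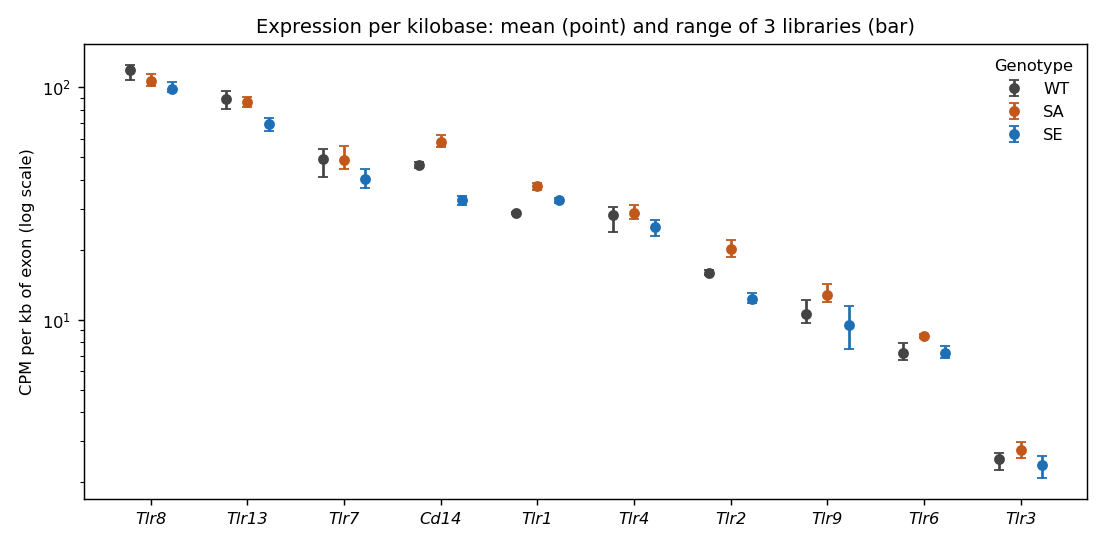
Expression per kilobase of exon (CPM per kb, log axis) of the 10 genes by genotype; points are means and bars the range of 3 libraries. The endosomal receptors Tlr8, Tlr13 and Tlr7 lead the order in WT, and Cd14 changes place with Tlr7 between SA and SE.

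The endosomal receptors made up most of the receptor RNA. Per kilobase, Tlr3, Tlr7, Tlr8, Tlr9 and Tlr13 held 77.5%, 76.3% and 77.4% of the summed level of the 9 receptors in the WT libraries, 72.6%, 73.3% and 73.2% in SA and 73.4%, 74.6% and 74.1% in SE. The WT share lay above that of every mutant library. The parts of the sum differed between the mutants: the surface receptors Tlr1, Tlr2, Tlr4 and Tlr6 summed to 79.9 ± 3.71 CPM per kb in WT, 94.7 ± 5.28 in SA and 77.2 ± 3.22 in SE (SD, n = 3). The endosomal receptors summed to 269 ± 22.5, 257 ± 16.6 and 220.5 ± 12.9 CPM per kb. The surface sum in SA lay above WT and SE in every library, and the endosomal sum in SE lay below every WT and SA library. No test was made of these sums.

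Cd14 (ENSMUSG00000051439, mm10 chromosome 18, 36725067 to 36726798, minus strand) had the widest separation of the 10 genes between the mutants. It stood at 79.6, 77.9 and 83 CPM in WT, 108, 97.2 and 96.1 in the SA libraries and 57.9, 53.8 and 58.7 in SE. No library of a genotype overlapped another genotype. Cd14 was 1.25-fold higher in SA than in WT (log2 change 0.32 ± 0.06, standard error, edgeR adjusted p = 0.00601), a call that ended when SA1 was left out (edgeR adjusted p = 0.0617). It was 1.41-fold lower in SE than in WT (adjusted p = 0.000219 by edgeR) and 1.77-fold lower in SE than in SA (log2 change -0.82 ± 0.07, edgeR adjusted p = 5.71e-07). The calls of lower Cd14 in SE held in all 18 alternatives.

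Tlr2 (ENSMUSG00000027995, chromosome 3, 83836272 to 83841767, minus strand), the shared subunit of the lipopeptide receptors, followed the same order of genotypes. It stood at 47, 49.4 and 47.7 CPM in WT, 59.6, 66.4 and 56 in the SA libraries and 39.2, 36.2 and 35.6 in SE, again with no overlap. Tlr2 was 1.26-fold higher in SA than in WT (log2 change 0.34 ± 0.07, edgeR adjusted p = 0.0107), a call that ended without WT3 (edgeR adjusted p = 0.0624) or SA2 (edgeR adjusted p = 0.0765). It was 1.3-fold lower in SE than in WT (log2 change -0.38 ± 0.07, edgeR adjusted p = 0.00634) and 1.64-fold lower in SE than in SA (adjusted p = 9.42e-06 by edgeR), and both of these calls held in all 18 alternatives.

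The partners of Tlr2 did not share its order. Tlr1 (ENSMUSG00000044827, chromosome 5, 64924679 to 64933563, minus strand), the partner for triacylated lipopeptides, stood at 95.6, 95.9 and 97.4 CPM in WT, 126, 129.7 and 121 in the SA libraries and 109, 112 and 106 in SE. Both mutants lay above WT in every library, and SE lay between WT and SA. Tlr1 was 1.3-fold higher in SA than in WT (log2 change 0.38 ± 0.06, edgeR adjusted p = 0.000425), which held in all 18 alternatives. The difference between SE and WT was 0.18 ± 0.06 on the log2 scale (edgeR adjusted p = 0.0818), and the call appeared without WT2 and SE3 together (edgeR adjusted p = 0.041). Tlr1 was 1.15-fold lower in SE than in SA (adjusted p = 0.0288 by edgeR), a call that ended without SA1, SA2, SE1 or SE3 in turn (edgeR adjusted p = 0.0914, 0.124, 0.0882 and 0.0698). Tlr6 (ENSMUSG00000051498, chromosome 5, 64952031 to 64960097, minus strand), the partner for diacylated lipopeptides, stood at 29.4, 25.1 and 25.6 CPM in WT, 31.2, 32.3 and 31.4 in the SA libraries and 25.6, 28.6 and 26.3 in SE. SA lay above every WT and SE library, while WT and SE overlapped. Tlr6 was not called in SA against WT (0.24 ± 0.08, edgeR adjusted p = 0.126), in SE against WT (edgeR adjusted p = 0.994) or in SE against SA (-0.24 ± 0.08, edgeR adjusted p = 0.0701). The call against WT appeared without WT1 (edgeR adjusted p = 0.039). That against SA appeared with scaling by library totals, in a fit of SE and SA alone, without WT1 or WT2, and without WT1 and SE2 together (edgeR adjusted p = 0.0456, 0.0447, 0.0414, 0.0436 and 0.0296).

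Tlr1 and Tlr6 are neighbours on chromosome 5 and share sequence, so the way reads that fit both were counted could move counts between them. Of the stretches of 100 bases in their annotated transcripts, 259 were identical in both, 7.89% of those of Tlr1 and 7.09% of those of Tlr6, and at 50 bases 15.4% of Tlr1 and 12.3% of Tlr6 stretches occurred in another gene. Cd14, Tlr2, Tlr7, Tlr8, Tlr9 and Tlr13 shared no stretch of 50 bases with any other annotated gene, on either strand. Tlr3 shared 5.3% of its 50-base stretches, mainly with the overlapping antisense gene Gm45542, and no source used here gives the strand setting of the counting.

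The RNA of the Tlr2 partners stood higher beside Tlr2 in SE. Per kilobase, the level of Tlr1 divided by that of Tlr2 in the same library was 1.83, 1.75 and 1.84 in WT, 1.9, 1.76 and 1.94 in the SA libraries and 2.51, 2.77 and 2.7 in SE. SE lay above all other libraries, whereas WT and SA overlapped. The level of Tlr6 divided by that of Tlr2 was 0.506, 0.411 and 0.434 in WT, 0.423, 0.393 and 0.453 in the SA libraries and 0.528, 0.639 and 0.599 in SE, where SE again lay above all others. These ratios are a description with no test. In SE against WT Tlr2 was called lower, at -0.38 on the log2 scale. The partners were not called there, with Tlr1 at 0.18 and Tlr6 at 0.00.

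Tlr4 (ENSMUSG00000039005, chromosome 4, 66827584 to 66930284, plus strand), the lipopolysaccharide receptor, was not called in any comparison. It stood at 169.6, 133 and 165 CPM in WT, 155, 172 and 150.4 in the SA libraries and 142, 149 and 128 in SE. WT overlapped both mutants, with WT2 the lowest WT library, and SE lay just below SA. The log2 differences were 0.03 ± 0.09 in SA against WT (edgeR adjusted p = 0.946), -0.16 ± 0.09 in SE against WT (edgeR adjusted p = 0.35) and -0.19 ± 0.09 in SE against SA (edgeR adjusted p = 0.204). Without WT2 Tlr4 was called lower in SE than in WT (-0.26 on the log2 scale, edgeR adjusted p = 0.031). The level of Cd14 divided by that of Tlr4, per kilobase, was 1.67 ± 0.194 in WT, 2.03 ± 0.21 in SA and 1.31 ± 0.16 in SE (SD, n = 3), and SE lay below every other library.

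**Figure D3:**
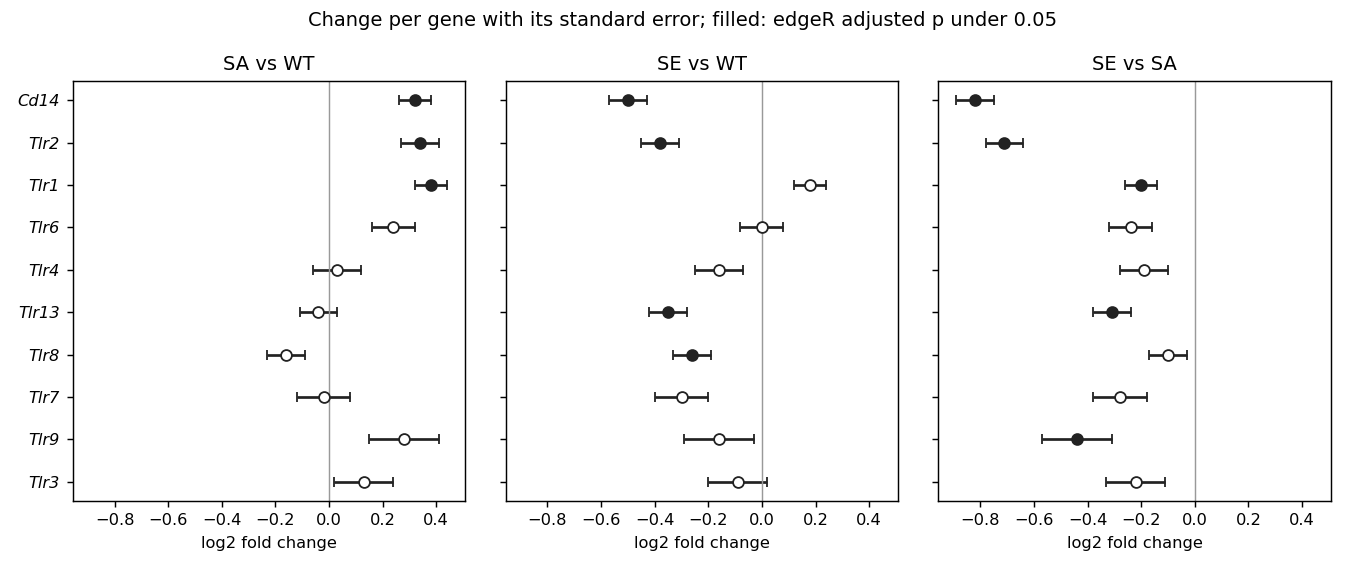
Log2 fold change of the 10 genes in each comparison, with its standard error (bar); filled points have an edgeR adjusted p under 0.05. All 10 points lie below 0 in SE vs SA, and in SE vs WT Tlr1 is the gene farthest above 0, not called.

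Among the endosomal receptors Tlr13 had the clearest fall in SE. Tlr13 (ENSMUSG00000033777, chromosome X, 106143204 to 106160493, plus strand), the mouse receptor for bacterial ribosomal RNA, stood at 414, 347 and 387 CPM in WT, 371, 391 and 353 in the SA libraries and 305, 317 and 278 in SE. Every SE library lay below every WT and SA library, and WT and SA overlapped. Tlr13 was 1.28-fold lower in SE than in WT (log2 change -0.35 ± 0.07, edgeR adjusted p = 0.00705, called in all 18 alternatives) and 1.24-fold lower in SE than in SA (adjusted p = 0.00968 by edgeR). The second call ended without SA2 (edgeR adjusted p = 0.0598). Between SA and WT the log2 difference was -0.04 ± 0.07 (edgeR adjusted p = 0.886).

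Tlr8 (ENSMUSG00000040522, chromosome X, 167242696 to 167264329, minus strand), whose human counterpart senses RNA breakdown products, had the highest level of the family. It stood at 436, 385 and 448 CPM in WT, 367, 409.6 and 363 in the SA libraries and 341, 377 and 344 in SE, with SE below WT in every library and SA overlapping both. It was 1.2-fold lower in SE than in WT (log2 change -0.26 ± 0.07, edgeR adjusted p = 0.0408), a call that held in 9 of 18 alternatives. It ended without WT1, WT3, SA1, SA3, SE1 or SE3 in turn (edgeR adjusted p = 0.105, 0.225, 0.0671, 0.0577, 0.187 and 0.0811), without the pair WT1 and SE2 (0.0765) and in a fit of WT and SE alone (0.0877). In SA against WT the log2 difference was -0.16 ± 0.07 (edgeR adjusted p = 0.315). Tlr8 was called there without WT2 and SE3 together (edgeR adjusted p = 0.0127).

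Tlr7 (ENSMUSG00000044583, chromosome X, 167304929 to 167330558, minus strand), which senses single-stranded RNA and lies next to Tlr8, was not called. It stood at 221, 168 and 214 CPM in WT, 182, 228 and 187 in the SA libraries and 160.0, 181 and 151 in SE. SE lay below SA in every library but overlapped WT, where WT2 was low. The log2 difference was -0.30 ± 0.10 in SE against WT (edgeR adjusted p = 0.131) and -0.28 ± 0.10 in SE against SA (edgeR adjusted p = 0.114). Without WT2 both were called (edgeR adjusted p = 0.00792 and 0.0257), as they were with no filter on low counts (edgeR adjusted p = 0.000859 and 0.000908). The call against SA also appeared in a fit of SE and SA alone (edgeR adjusted p = 0.036) and without WT1 and SE2 together (0.0408), and that against WT without WT2 and SE3 together (edgeR adjusted p = 0.0384). With no filter the log2 changes of Tlr7 stayed at -0.30 and -0.28. That fit moved the edgeR adjusted p of other genes both ways. For Tlr2 in SE against SA it went from 9.42e-06 to 1.86e-17, and for Irak2 in SE against WT from 0.0472 to 0.0944.

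Tlr9 (ENSMUSG00000045322, chromosome 9, 106222598 to 106226883, plus strand), the receptor for unmethylated CpG DNA, varied widely between the SE libraries. It stood at 33.5, 42.2 and 35.1 CPM in WT, 41.4, 42.9 and 49.7 in the SA libraries and 26.1, 33 and 39.8 in SE. SE lay below SA in every library, and WT overlapped both. Tlr9 was 1.36-fold lower in SE than in SA (log2 change -0.44 ± 0.13, edgeR adjusted p = 0.0402). The call ended without any 1 of SA1, SA2, SA3, SE1, SE2 and WT3 (highest edgeR adjusted p = 0.172). Tlr9 was not called in SA against WT (0.28 ± 0.13, edgeR adjusted p = 0.338). It was called there without WT2 and SE3 together (edgeR adjusted p = 0.00519) and with no filter on low counts (edgeR adjusted p = 0.0204). WT2 was the highest WT library for Tlr9, and SE3 is in neither of the groups compared there. With no filter the log2 change stayed at 0.28. In SE against WT the difference was -0.16 ± 0.13 (edgeR adjusted p = 0.564).

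Tlr3 (ENSMUSG00000031639, chromosome 8, 45395665 to 45411080, minus strand), the receptor for double-stranded RNA, had the lowest level of the 10 genes. It stood at 13.9, 11.7 and 13.6 CPM in WT, 15.6, 13.3 and 14.2 in the SA libraries and 12.7, 13.5 and 10.8 in SE, and all genotypes overlapped. Its log2 differences were 0.13 ± 0.11, -0.09 ± 0.11 and -0.22 ± 0.11 in SA against WT, SE against WT and SE against SA (edgeR adjusted p = 0.705, 0.729 and 0.24). Of the other mouse receptors, Tlr5, the flagellin receptor, had 0 to 2 counts per library and Tlr12 0 to 3, too few to test, where 3 counts correspond to 0.122 to 0.174 CPM. Tlr11 had 6 to 25 counts per library and was not called in any comparison (edgeR adjusted p = 0.976, 0.599 and 0.477).

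Libraries of the same genotype differed for several receptors in the same way. WT2 lay below the WT mean for Tlr7 (-0.25 on the log2 scale), Tlr4 (-0.22), Tlr3 (-0.15), Tlr13 (-0.14) and Tlr8 (-0.13), and above it for Tlr9 (0.20). SE3 lay below the SE mean for Tlr3 (-0.18), Tlr4 (-0.13), Tlr7 (-0.12) and Tlr13 (-0.11), and above it for Tlr9 (0.29). Tlr1, Tlr2 and Cd14 stood within 0.05 of the WT mean in every WT library. These 3 genes were also those called in SA against WT.

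**Figure D4:**
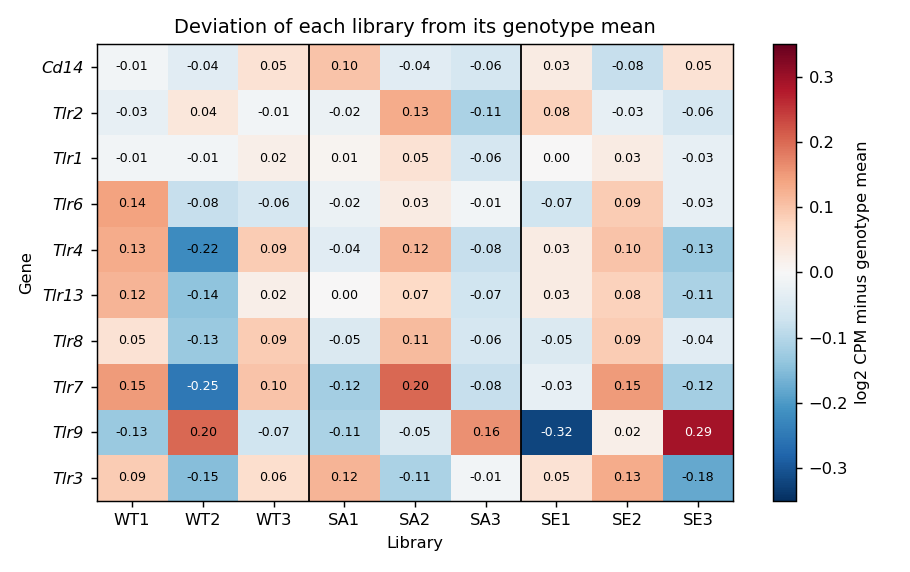
Deviation of each library from the mean of its genotype (log2 CPM, color and printed value) for the 10 genes; vertical lines separate WT, SA and SE. WT2 and SE3 stand low for Tlr4, Tlr7, Tlr13 and Tlr3 and high for Tlr9, while Tlr1 and Cd14 vary little.

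Promoter sequence is shown for the called receptors that had an entry in RefSeq's promoter table (build GRCm38.p6), which held 7 of the 10 genes by symbol; Tlr4, Tlr7 and Cd14 had none. Windows are the 250 bases before the RefSeq start, written 5′ to 3′ on the gene's strand; the part that lies outside annotated exons is printed. Both strands of the whole window were searched for the STAT palindrome TTC and GAA with a 4-base spacer, which STAT6 prefers, or a 3-base spacer, that of other STAT factors, and for GAGGAA, a core of the macrophage factor PU.1, and TGANTCA (AP-1). Capitals mark matches. They occurred in 5.85%, 7.02%, 23.3% and 6.75% of the 32851 RefSeq promoter windows of 250 bases.
Tlr8, chrX:167264330-167264579, minus strand: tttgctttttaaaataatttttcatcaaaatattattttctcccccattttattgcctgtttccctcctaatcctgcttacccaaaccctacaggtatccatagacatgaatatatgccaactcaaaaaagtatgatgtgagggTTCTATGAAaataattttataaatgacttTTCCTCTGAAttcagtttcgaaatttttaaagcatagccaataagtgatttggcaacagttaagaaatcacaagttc
Tlr13, chrX:106143025-106143203, plus strand: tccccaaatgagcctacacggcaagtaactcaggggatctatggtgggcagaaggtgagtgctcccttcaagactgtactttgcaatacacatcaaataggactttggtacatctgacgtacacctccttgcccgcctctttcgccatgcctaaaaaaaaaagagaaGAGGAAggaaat
Tlr9, chr9:106222348-106222597, plus strand: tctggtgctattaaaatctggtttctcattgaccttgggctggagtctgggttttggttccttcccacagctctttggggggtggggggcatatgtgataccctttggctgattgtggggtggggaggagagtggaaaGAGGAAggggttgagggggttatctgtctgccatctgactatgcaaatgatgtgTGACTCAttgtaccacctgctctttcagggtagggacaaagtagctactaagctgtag
Tlr1, chr5:64933564-64933808, minus strand: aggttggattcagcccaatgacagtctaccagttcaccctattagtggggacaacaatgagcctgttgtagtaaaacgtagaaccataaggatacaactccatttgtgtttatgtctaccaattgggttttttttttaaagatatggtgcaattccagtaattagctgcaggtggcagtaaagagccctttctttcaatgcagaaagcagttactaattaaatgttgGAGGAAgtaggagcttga
Tlr2, chr3:83841768-83841858, minus strand: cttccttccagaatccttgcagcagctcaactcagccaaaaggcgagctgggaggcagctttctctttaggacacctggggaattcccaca

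The Tlr8 window held a STAT palindrome with a 4-base spacer that begins 77 bases before the start and a palindrome with a 3-base spacer at 106 bases, and the first of these overlaps a reverse-strand GAGGAA. The windows of Tlr13, Tlr9 and Tlr1 held GAGGAA, and that of Tlr9 also TGANTCA. The Tlr2 window held none of the motifs searched, which says only that these letters are not in it. A further Tlr1 entry, for a downstream start and not printed, held a palindrome with a 3-base spacer at 228 bases. A match is a description of sequence and no binding was measured.

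The rest of the pathway was read from lists of its known parts. Over all tested genes 1.97% were called higher and 2.10% lower in SA against WT. These shares were 2.35% and 2.69% in SE against WT, and 4.77% and 5.42% in SE against SA. In the list of 18 accessory proteins and endosomal factors, 17 were tested. In SA against WT 1 was called higher and 0 lower, in SE against WT 1 and 0, and in SE against SA 3 and 1, with medians of -0.01, 0.01 and 0.00 on the log2 scale. Ly96, which encodes MD-2, averaged 8.2 CPM in WT, against 8.17 in SA and 8.1 in SE, and Unc93b1 1177, 1186 and 1186 CPM. Cd180, a relative of Tlr4 that restrains it, averaged 216 ± 16.7 CPM in WT, against 260.1 ± 14.9 in SA and 218 ± 13.3 in SE (SD, n = 3). It was 1.2-fold higher in SA than in WT (edgeR adjusted p = 0.035, at most 0.208 where the call ended without WT2, WT3, SA1 or SA2). It was 1.19-fold lower in SE than in SA (adjusted p = 0.0247 by edgeR), a call that ended without SA1, SA2 or SE3 (edgeR adjusted p = 0.124, 0.0865 and 0.0789). Lgmn, the endosomal protease that processes receptors such as TLR9, averaged 1381 ± 92.3 CPM in SA and 1667 ± 137 in SE (SD, n = 3). Its call as 1.21-fold higher (edgeR adjusted p = 0.0346) ended without any 1 of WT3, SA1, SA2, SE1 and SE3 (highest edgeR adjusted p = 0.16).

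Of 6 adaptors, among them Myd88, Tirap, Ticam1 and Ticam2, edgeR called 0 in each comparison, and 0, 1 and 4 had an unadjusted p under 0.05. The share of all tested genes under that unadjusted threshold was not taken, so these counts have no baseline. DESeq2 called 0, 0 and 1. The adaptor medians were 0.05, -0.11 and -0.22. The smallest adjusted p of an adaptor was that of Ticam2, which links TLR4 to TRIF, at 29.8 ± 2.57 CPM in SE against 36.8 ± 4.78 in SA (SD, n = 3, edgeR adjusted p = 0.051, and 0.0394 by DESeq2). In SA against WT it was that of Tirap, the bridge to MyD88, whose mean was 21.2 CPM in SA, with 19.1 in WT (edgeR adjusted p = 0.492). Myd88 averaged 56.2 CPM (WT), 60.1 (SA) and 53.4 (SE). Of 22 kinases, ligases and transcription factors of the pathway, 1 was called higher and 0 lower in SA against WT, 0 and 2 in SE against WT and 0 and 2 in SE against SA, with medians of -0.00, -0.05 and -0.05. Of all tested genes 4.07%, 5.04% and 10.2% were called in these comparisons. The counts of the 22 genes stood near these shares in SA against WT and SE against SA. Irf7, the interferon factor downstream of the endosomal receptors, was the riser in SA, at 117 ± 8.35 CPM with 88.5 ± 1.7 in WT (SD, n = 3, 1.32-fold, edgeR adjusted p = 0.000661). It fell in SE to 85.4 ± 1.69 CPM, 1.37-fold below SA (edgeR adjusted p = 0.00015). The falls in SE against WT were Peli2, a ubiquitin ligase of IRAK kinases (1.25-fold, edgeR adjusted p = 0.0281, ended without WT3, SE1 or SE2, highest 0.143), and Irak2, a kinase downstream of MyD88 (1.16-fold, edgeR adjusted p = 0.0472, ended without any of the 9 libraries in turn, highest 0.18). Ikbke, a kinase of IRF3 and IRF7, was 1.2-fold lower in SE than in SA (adjusted p = 0.0178 by edgeR), ended without SA1, SA3 or SE1 (highest 0.106).

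Of 13 negative regulators, 2 were called higher and 0 lower in SA against WT, 1 and 0 in SE against WT and 1 and 5 in SE against SA, with medians of 0.03, -0.01 and -0.18. Of all tested genes 4.07%, 5.04% and 10.2% were called in these comparisons. Tnip3, which limits NF-kB, averaged 126 ± 12.9 CPM in WT, against 175 ± 9.46 in SA and 132 ± 13 in SE (SD, n = 3). It was 1.39-fold higher in SA than in WT (edgeR adjusted p = 0.0016). Il1rl1, the interleukin-33 receptor that also dampens TLR signalling, averaged 2.6 ± 0.45, 5.17 ± 0.858 and 2.67 ± 0.421 CPM, 1.97-fold higher in SA than in WT (edgeR adjusted p = 0.00293). Socs1, a feedback inhibitor induced by cytokines and by TLR ligands, went the other way: it averaged 20.2 ± 1.3 CPM in WT, against 19.7 ± 0.898 in SA and 33.6 ± 1.46 in SE, 1.67-fold higher in SE than in WT (adjusted p = 2.45e-05 by edgeR). Among the falls in SE against SA were Il1rl1 (1.93-fold, edgeR adjusted p = 0.00249), Tnip3 (1.33-fold, edgeR adjusted p = 0.0034) and Nfkbia, which encodes the NF-kB inhibitor IkBalpha (1.22-fold, edgeR adjusted p = 0.0246, ended without SA1, SA3, SE1 or SE2, highest 0.112).

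Of 16 genes that TLR ligands induce, 11 had enough counts to test, and Il6, Il12b, Cxcl1, Nos2 and Ifnb1 had not, with at most 19 counts in any library. In SA against WT 6 were called higher and 0 lower, with a median of 0.55. In SE against WT 0 were called higher and 1 lower (median -0.03), and in SE against SA 0 and 7 (median -0.74). Of all tested genes 4.07%, 5.04% and 10.2% were called in these comparisons. Tnf and Ccl3, chosen for naming after their values were seen, averaged 10.3 ± 0.576 and 17.3 ± 0.491 CPM (WT), against 16.6 ± 2.53 and 25.3 ± 1.69 (SA) and 10.1 ± 0.292 and 19 ± 1.22 (SE) (SD, n = 3). Both were higher in SA than in WT (1.61-fold and 1.46-fold, edgeR adjusted p = 0.00097 and 0.00048). Nfkbiz, a nuclear regulator induced by MyD88 signalling, was the fall in SE against WT, at 6.54 ± 0.565 CPM against 9.51 ± 0.581 (1.45-fold lower, edgeR adjusted p = 0.00777). Its call ended without SE1 (edgeR adjusted p = 0.0611). Nfkbiz averaged 12.1 ± 0.547 CPM in SA, so its means had the order of Cd14 and Tlr2, SA above WT above SE. Acod1, which makes itaconate, was 1.91-fold higher in SA than in WT (edgeR adjusted p = 0.000546). Cxcl10, a chemokine, and Il1b, an inflammatory cytokine, were low, at 1.2 and 1.35 CPM in SA, 0.458 and 0.604 in WT and 0.552 and 0.198 in SE. Their calls of higher in SA than in WT (edgeR adjusted p = 0.0243 and 0.045) ended without several libraries in turn: WT1, WT2, SA2 and SA3 for Cxcl10 (highest 0.115), and WT1, WT3, SE1, SE2 and each SA library for Il1b (highest 0.248). DESeq2 did not make these calls either (adjusted p = 0.0552 and 0.126). Il1b was 6.79-fold lower in SE than in SA (adjusted p = 0.000285 by edgeR). Cxcl10 was 2.15-fold lower (edgeR adjusted p = 0.0395), ended without SA2, SA3, SE1 or SE3 (highest 0.138) and not made by DESeq2 (0.0978).

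The tested genes of at least 5 CPM whose log2 CPM over the 9 libraries was most correlated with each receptor were listed as a description, since the 9 libraries hold 3 genotypes and 9553 genes were compared. For Tlr2 they were Clec4e (Pearson r = 0.987), a lectin receptor for mycobacterial glycolipid, Rnase6 (0.983), a secreted ribonuclease, and Fcgr1 (0.979), the high-affinity IgG receptor. For Cd14 they were Tbc1d5 (0.984), Cmtm7 (0.981) and Fam129a (0.980). For Tlr1 they were Slc15a2 (0.978), C1qa (0.972) and Col1a1 (0.971), genes high in SA, intermediate in SE and low in WT. For Tlr13 they were Crebrf (0.997), Wwp1 (0.991) and Sgpp1 (0.979), and the values for Tlr8 and Tlr9 lay between 0.957 and 0.969.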

How the data were processed

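Poly(A) RNA of 9 libraries, 3 per genotype by the labels, was analysed. The authors deposited raw read counts per Ensembl gene; HISAT2 2.1.0, featureCounts and build mm10 are named in the submitters' processing notes. No source used here gives the annotation release, the strand setting or the handling of reads with several matches. GENCODE M21 gave symbols for 55141 of 55401 gene IDs.

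All libraries were fitted together with edgeR 4.0.16 in R 4.3.3: filterByExpr on genotype (minimum count 10, minimum total 15), TMM scaling, a quasi-likelihood fit (robust) on genotype alone with 6 residual degrees of freedom, 2-sided F tests, and Benjamini-Hochberg adjustment over 13501 genes. CPM are counts relative to the TMM-scaled library size. Correlations and deviations used log2 CPM with a prior count of 2. The fit was tested on simulated data. Some marker genes are not reported here. Alternatives included DESeq2 1.42.0, other scalings and filters, the replicate number as a block, the 2 compared groups alone, and leaving out libraries. The named members and the gene lists were chosen with earlier results of these data known. The members, the other Toll-like receptors and Stat6 are all named. From each list, direction and comparison the text names up to 3 called genes with the largest change (or the smallest p). It also names the 3 genes most correlated with each called member except Tlr8 and Tlr9. Ly96, Unc93b1, Myd88, Tnf and Ccl3 were given levels outside these rules, and cell type markers are named apart from them. The labels do not name separate animals; p-values then reflect only how these samples vary, which may be technical.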

Additional observations from a re-analysis of the deposited data

Results flagged for a closer look

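Cd14 and Tlr2 differed from WT in opposite directions in the mutants: every SA library lay above the WT mean and every SE library below it. The difference between the mutants was itself tested, with a log2 change in SE against SA of -0.82 for Cd14 and -0.71 for Tlr2 (edgeR adjusted p = 5.71e-07 and 9.42e-06). Both comparisons with WT use the same WT libraries.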

How the results depend on the processing

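Over 18 alternatives, 478 of 540 results of the 10 genes kept their direction and side of the threshold, 25 lost a call, 20 gained one and 17 changed sign, all of these in differences that were not called. The cause of these changes was not tested. Leaving out 1 library in turn gave 297 to 652 called genes in SA against WT (549 with all libraries; 297 without WT3, 308 without SA1), 292 to 1097 in SE against WT (680; 292 without WT3, 332 without SE1, 1097 without WT2) and 781 to 1762 in SE against SA (1376; 836, 781 and 908 without SA1, SA2 and SA3, 811 without SE1). Without WT2 and SE3 together 903 and 1215 genes were called in SA and SE against WT, without WT1 and SE2 together 372 in SE against WT, and in a fit of WT and SE alone 438. WT2 and SE3 deviated most alike of the libraries of different genotypes (correlation 0.27), followed by WT1 and SE2 (0.178). Leaving out a library that stands apart narrows the spread of its genotype, so calls gained that way add no support. Scaled by library totals alone, SE against SA gave 473 higher and 925 lower genes in place of 644 and 732.

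Same-numbered libraries of different genotypes did not deviate together (correlations of -0.195 to 0.105), so the numbers were not taken as pairs. With the replicate block 500, 568 and 1189 genes were called, and the calls of Tlr1 and Cxcl10 in SE against SA, Tlr8 and Irak2 in SE against WT and Il1b in SA against WT were not made (edgeR adjusted p = 0.0532, 0.0535, 0.0669, 0.0871 and 0.054).

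Sign changes, on the log2 scale, were as follows. In SA against WT leaving out 1 library gave -0.07 to 0.09 for Tlr4, -0.13 to 0.06 for Tlr7, -0.11 to 0.02 for Tlr13, -0.23 to 0.26 for Tlr11 and -0.01 to 0.04 for Stat6. Without WT2 and SE3 together Tlr4 was at -0.07 and Tlr11 at -0.23, without WT1 and SE2 together Tlr7 was at 0.06 and Tlr13 at 0.02, and with library totals Tlr7 was at 0.01. Tlr6 in SE against WT was at -0.05 to 0.08 without 1 library, -0.02 with library totals, -0.01 among genes of at least 5 CPM and -0.03 without WT2 and SE3 together. Tlr5 and Tlr12 had too few counts to test, and Tlr3 had the fewest counts of the 10 genes, 200 in WT2.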

Other observations

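Slc15a3, an endolysosomal transporter of peptides and histidine, averaged 698 ± 64.6 CPM in WT, against 594 ± 21.7 in SA and 857 ± 48.6 in SE (SD, n = 3), and was 1.44-fold higher in SE than in SA (adjusted p = 7.86e-05 by edgeR). Against WT it was 1.23-fold higher in SE (edgeR adjusted p = 0.0157), a call that ended without WT1 or WT3, without WT1 and SE2 together and in a fit of WT and SE alone (edgeR adjusted p = 0.0673, 0.101, 0.077 and 0.05). Pld3, an endolysosomal nuclease that degrades the DNA sensed by TLR9, averaged 877 ± 62.8 CPM in SA and 1111 ± 95.8 in SE (SD, n = 3). SE exceeded SA by 1.27-fold (adjusted p = 0.0135 by edgeR), and the call ended without SA1 or SA2 (edgeR adjusted p = 0.0748 and 0.0856).

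Tlr7, Tlr8 and Tlr13 all lie on the X chromosome. Of 417 tested X-linked genes, 14 were called lower in SE than in WT, 3.36% against 2.69% of all tested genes. There 5 were called higher, where 2.35% of all tested genes were called higher, and the median log2 change was -0.043. In SE against SA 29 were called lower, 6.95% against 5.42% of all tested genes. There 11 were called higher, where the share of all tested genes was 4.77%, and the median was -0.057. In SA against WT 5 were called lower, 1.2% against 2.10% of all tested genes. There 8 were called higher, where the share of all tested genes was 1.97%, and the median was 0.017. The part of the chromosome in the levels of these receptors was not tested.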
